A study of Rattus norvegicus with 43 samples.

Results

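Chemokines and their receptors were followed through the kidney cortex of male Dahl salt-sensitive rats as a set of 50 genes. The set holds protein-coding genes of both deposited expression tables whose symbol starts with Ccl, Cxcl, Ccr or Cxcr and a digit, together with Cx3cl1 and Cx3cr1. It makes up 50 of the 22293 protein-coding genes that both tables list, with 33 ligands and 17 receptors. Levels are FPKM, which divides the fragments of a gene by its length in kilobases and by library size, so that levels of different genes can be set beside each other per length. In 31 members (23 ligands and 8 receptors) the mean reached 1 FPKM in at least 1 of 8 groups, and these are described. The other 19 stayed below that level in every group.

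The groups combined genotype, diet and time of collection. Rats were labelled SS WT (called SS here) or SSper1-/- (called labelled Per1KO), a line in which the circadian clock gene Per1 is disrupted on the SS background. The sources used here do not say which stretch of Per1 is missing. They ate 0.4% NaCl (normal salt) or 4% NaCl (high salt) for 3 weeks, and cortex was taken at 2pm, in the inactive phase, or at 2am, in the active phase. On normal salt there were 6 SS and 6 labelled Per1KO libraries at 2pm and 6 SS and 5 labelled Per1KO libraries at 2am. On high salt each of the 4 groups had 5 libraries. Ages are not in the labels used here. Each library is a separate sample in the labels, which do not say more of its origin, so the p-values measure the spread between these 43 samples.

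Chemokines are small secreted proteins that attract white blood cells along a gradient and act through receptors coupled to G proteins. In the kidney they are made by tubule cells, endothelium, resident macrophages and fibroblasts, and some, such as Cxcl12, also guide vessel growth. Ligands of the CXC class with affinity for Cxcr3 are classical products of interferon, whereas many CC ligands draw monocytes and macrophages through receptors such as Ccr2. Cxcl16 and Cx3cl1 are unusual in that they are made as membrane-anchored proteins and can be shed.

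The libraries held between 24.0 M and 41.6 M fragments on normal salt (median 29.7 M) and between 15.3 M and 27.6 M on high salt (median 20.5 M). Per1 mRNA did not differ by label in any of the 4 label comparisons, with group means from 8.43 to 17.3 FPKM and adjusted p-values from 0.392 to 0.763. Reads outside a deleted stretch would check nothing, so the labels are taken as given. Some libraries stood apart in kidney markers. SS high salt 2pm replicates 4 and 5 were low in proximal tubule genes, with a mean log2(FPKM + 1) down to 6.08. SS normal salt 2pm replicate 5 (7.04) was also low, and labelled Per1KO normal salt 2pm replicate 1 was high in fat markers (4.14). Results that rest on them are given with and without them. Of the 31 described members, 18 were lowest of their group in that labelled Per1KO library and 17 in SS high salt 2am replicate 1. The latter was also lowest of its group in macrophage and injured tubule markers. Library numbers ran in blocks that followed the groups, except on high salt at 2pm, where both labels had libraries of a first and a later number series. There the first series held labelled Per1KO replicates 1, 2 and 3 and SS replicates 1 and 2. The later series held the rest, SS replicates 4 and 5 among them. Elsewhere, library block, label and time of day cannot be told apart. The SS normal salt 2pm libraries alone had names starting with OK, and all others started with AZ. In comparisons with that group the name prefix cannot be told apart from label or time.

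The sequence just upstream of 4 members whose mRNA differed by label or by time is shown for reference, since 3 of them lie on 1 chromosome and 2 of those are neighbours. Each line gives 250 bases before the gene start in RefSeq for build GRCr8, 5′ to 3′ on the strand of the gene. Capitals mark the TATA box letters TATAAA and, in Cxcl10, a match to the core of the interferon-stimulated response element, written GAAA, any 2 bases, GAAA. The letters TATAAA begin 41 bases before the gene start in Cxcl11, 32 in Ccl6 and 33 in Cxcl13, but 162 in Cxcl10. Cxcl10 lies at chr14:15988816-15989065 on the plus strand, Cxcl11 at chr14:15973478-15973727 on the plus strand, Ccl6 at chr10:68883367-68883616 on the minus strand and Cxcl13 at chr14:13917921-13918170 on the minus strand.
Cxcl10: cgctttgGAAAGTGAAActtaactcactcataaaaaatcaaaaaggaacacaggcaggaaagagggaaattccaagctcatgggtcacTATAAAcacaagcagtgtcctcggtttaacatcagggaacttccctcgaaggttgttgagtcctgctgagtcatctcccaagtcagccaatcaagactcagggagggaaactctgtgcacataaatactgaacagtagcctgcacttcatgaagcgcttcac
Cxcl11: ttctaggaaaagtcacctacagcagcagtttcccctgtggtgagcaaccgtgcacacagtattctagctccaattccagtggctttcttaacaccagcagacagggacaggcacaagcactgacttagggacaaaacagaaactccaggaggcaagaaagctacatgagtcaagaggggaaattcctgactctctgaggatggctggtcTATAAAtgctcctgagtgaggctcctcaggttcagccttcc
Ccl6: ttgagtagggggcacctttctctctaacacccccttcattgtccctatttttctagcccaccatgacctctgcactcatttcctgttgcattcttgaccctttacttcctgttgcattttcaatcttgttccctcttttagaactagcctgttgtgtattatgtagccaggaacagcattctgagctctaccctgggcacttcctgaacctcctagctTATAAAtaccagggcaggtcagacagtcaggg
Cxcl13: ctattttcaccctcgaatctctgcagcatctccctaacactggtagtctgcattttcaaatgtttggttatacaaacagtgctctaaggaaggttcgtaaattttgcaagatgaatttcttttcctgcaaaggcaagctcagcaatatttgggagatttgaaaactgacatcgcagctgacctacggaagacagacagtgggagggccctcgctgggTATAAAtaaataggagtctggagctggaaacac
Of the 50 members, 38 had an entry in the RefSeq promoter table, and both strands were searched. TATAAA occurred in 11 of these 38 and in 12.9% of all 33469 promoters. The response element core occurred in 2, Cxcl10 and Ccl19, and in 3.41% of all. The kB motif was searched only in the spelling GGG, any 2 bases, TTTCC, so promoters without a match may hold other spellings of it. That spelling was present in 6 (Ccl20, Ccl9, Ccr3, Cxcl1, Cxcl2 and Cxcl6) against 1.3% of all. The E-box CACGTG, bound by clock proteins, was present in Ccl28 alone among these members against 5.59% of all. A match describes letters in this window only.

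Cortex mRNA of the set was dominated by a few ligands. Cxcl16 was the most abundant, at a mean of 112 FPKM over the 43 libraries, followed by Cx3cl1 at 43.3, Cxcl12 at 26.1 and Ccl21 at 16.7. The most abundant receptor was Ccr10 at 12.5 FPKM, ahead of Cx3cr1 at 6.03 and Cxcr4 at 3.29. The 4 lowest described members were Cxcr5, Ccl9, Ccr7 and Ccr2, between 0.566 and 0.784 FPKM. At the limit of 1 FPKM in the highest group mean, Cxcr5 (1.02), Ccr7 (1.08) and Ccr2 (1.18) lay just inside and Ccr1 (0.954) just outside.

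**Figure D1:**
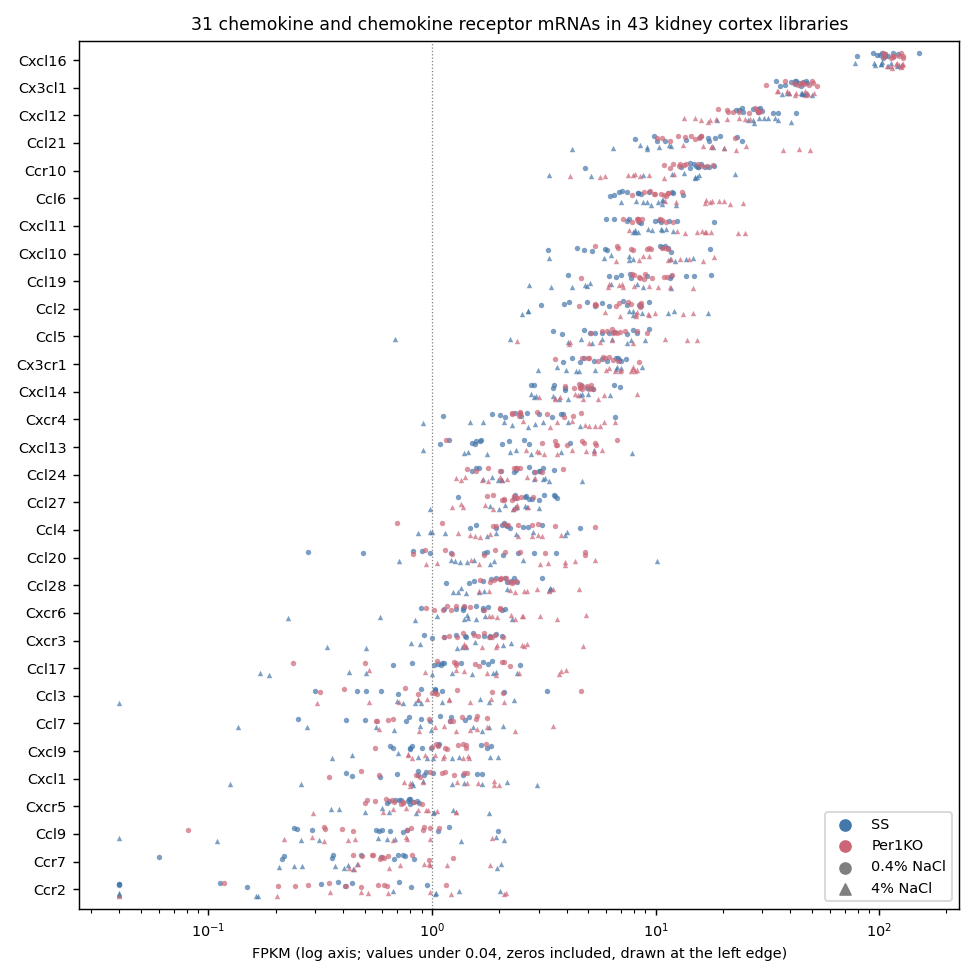
FPKM (log axis) of the 31 described members in each of 43 libraries, circles for 0.4% and triangles for 4% NaCl, blue for SS and red for labelled Per1KO, with a dotted line at 1 FPKM. Cxcl16 lies between 78.2 and 151 FPKM in every library, whereas members at the foot of the plot straddle the line.

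Some members share reads or sequence with neighbours, and the sources used here do not name the strand setting of the counts. Cxcl10 and Cxcl11 lie inside Art3 on the opposite strand (mean 1.93 FPKM), and the whole gene model of Cxcr6 lies inside Fyco1 on the opposite strand (11.7 FPKM). For these 3 genes, reads of the partner cannot be told apart from their own if strand was ignored. The gene model of Ccr2 is short.

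Differences by label were measured as log2(FPKM + 1) in labelled Per1KO minus SS with limma, adjusted over all genes of a comparison, and members with an adjusted p under 0.05 are said to pass. On normal salt at 2pm, 0 of 27 tested members passed (0.372% of all genes did), 4 had an unadjusted p below 0.05 and the median difference was -0.06. On normal salt at 2am, 3 of 27 members passed, all higher in labelled Per1KO, where 4.18% of all genes passed (3.19% higher). They were Ccl6, Cxcl10 and Cxcl13, and the median over the 27 was 0.14 against -0.02 over all genes. On high salt at 2pm, 7 of 29 were higher (Cxcl16, Ccl21, Ccl6, Cxcl11, Cx3cr1, Cxcr4 and Cxcr6) and 1 was lower (Ccl24), where 29.8% of all genes passed (14.2% higher and 15.7% lower). Their share of 27.6% was thus close to that of all genes, while the median was 0.38 against 0.00. At 2am on this diet, Ccl6 and Cxcr4 were higher and Cxcl12 lower among 29, where 8.95% of all genes passed (4.3% higher, 4.64% lower) and the medians were 0.15 and -0.01.

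Scaling to recovered fragments rather than to the library size behind FPKM (voom in limma) moved the median of all genes up by 0.13, 0.24 and 0.17 in the last 3 of these comparisons. The split of all passing genes moved from 428 higher and 133 lower to 1393 and 74 on normal salt at 2am. On high salt it moved from 2112 and 2333 to 4893 and 796 at 2pm, and from 641 and 692 to 1804 and 258 at 2am. With that scaling 4, 11 and 5 members passed, and none of the members named above changed direction.

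**Figure D2:**
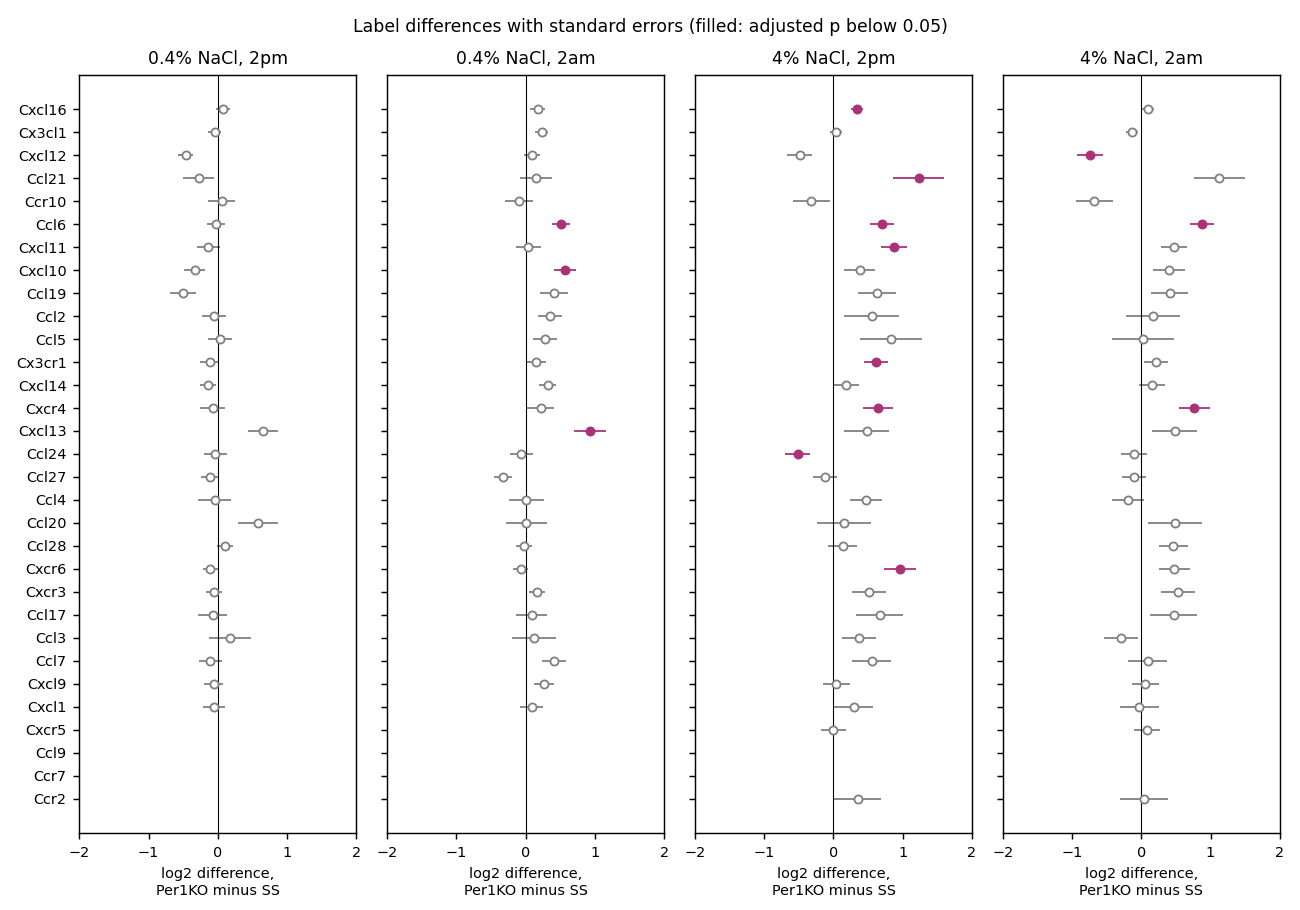
Difference in log2(FPKM + 1), labelled Per1KO minus SS, with its standard error, for each described member that was tested, in 4 panels by diet and time. Filled points have an adjusted p below 0.05, and there are 0, 3, 8 and 3 of them from left to right.

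White cell markers and markers of injured tubules and fibroblasts moved in the same comparisons, and in bulk tissue fewer cells of a type and less RNA per cell cannot be told apart. Of 12 macrophage and monocyte markers, 10 were tested, and Cd163 and Marco were below 1 FPKM in every group. At 2pm on normal salt 0 of 10 passed. Higher in labelled Per1KO were 8 of 10 on normal salt at 2am, 9 of 10 on high salt at 2pm and 6 of 10 on high salt at 2am. Of all genes 3.19%, 14.2% and 4.3% were higher in these comparisons. C1qb, a complement subunit made by tissue macrophages, had a mean of 47.3 ± 11.4 FPKM (SD, n = 5) against 22.8 ± 2.84 at 2pm on high salt, a log2 difference of 0.9981 ± 0.16 (limma adjusted p = 0.000301).

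Summed FPKM of the macrophage list ran from 491 to 742 against 316 to 445 in SS on high salt at 2pm, from 465 to 595 against 280 to 404 on normal salt at 2am, and from 461 to 653 against 240 to 470 on high salt at 2am. The first 2 pairs did not overlap. Of 13 T and NK cell markers, 2 of 9 tested passed as higher on normal salt at 2am (3.19% of all genes). On high salt 4 of 8 did at 2pm (14.2%) and 1 of 8 at 2am (4.3%). Cd8b, Cd5, Gzmb and Ncr1 were below 1 FPKM in every group. Neutrophil and B cell markers were near the floor, with 7 of 8 and 7 of 7 below 1 FPKM in every group, and no marker was at 0 in all libraries.

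Of 7 markers of injured tubules, all tested, 5 were higher in labelled Per1KO on normal salt at 2am, 4 on high salt at 2pm and 5 on high salt at 2am, with 0 lower and list medians of 0.86, 1.14 and 1.76. The shares of all genes that were higher there were 3.19%, 14.2% and 4.3%. Havcr1, the kidney injury molecule of proximal tubules, differed by 1.54 ± 0.39, 1.72 ± 0.50 and 2.13 ± 0.50. The summed FPKM of the list ran from 1530 to 2664 against 544 to 1397 in SS on normal salt at 2am, without overlap, from 3921 to 8435 against 1188 to 6329 on high salt at 2pm and from 2604 to 6694 against 441 to 2826 on high salt at 2am. Of 6 fibroblast markers 1, 5 and 2 were higher in these comparisons, to be read against those same shares. Their summed FPKM did not overlap on high salt at 2pm, at 265 to 414.5 against 165 to 254. At 2pm on normal salt 0 markers of either list passed. The part of all these markers in the chemokine results was not tested.

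**Figure D3:**
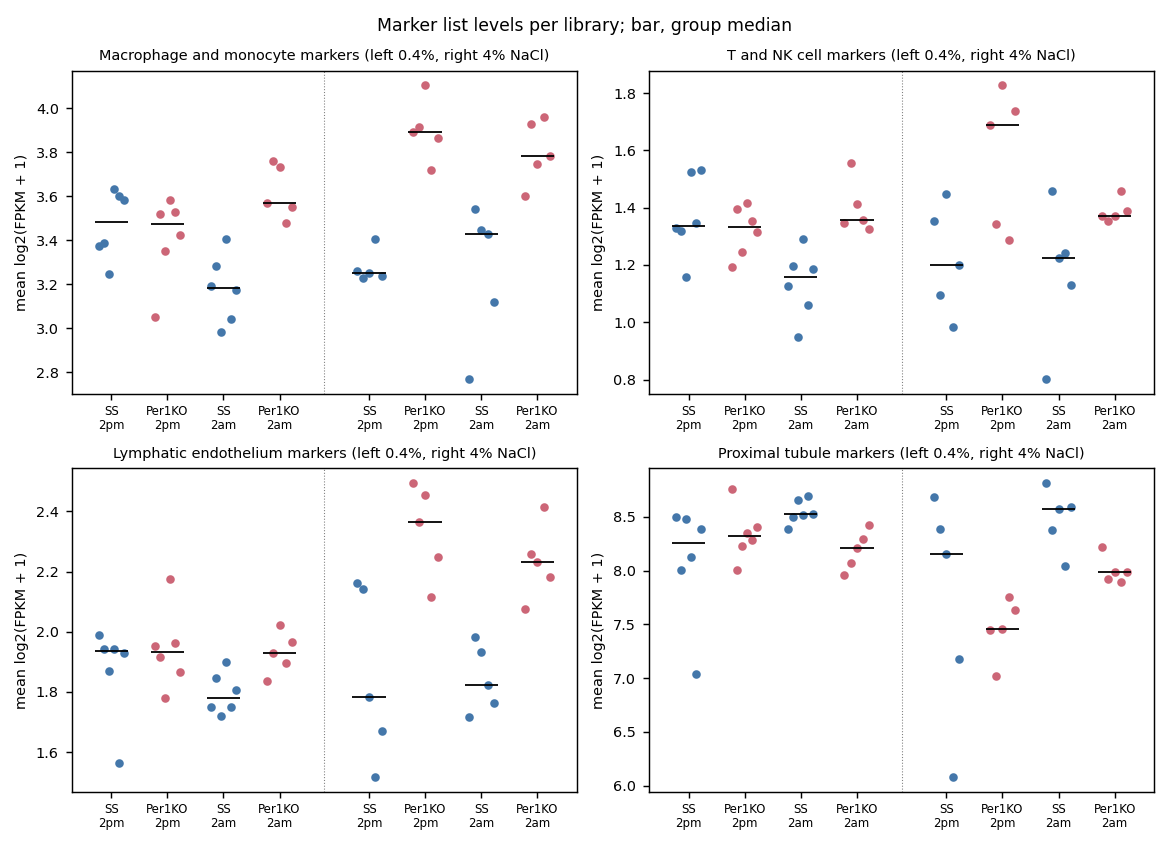
Mean log2(FPKM + 1) of the markers of macrophages and monocytes, T and NK cells, lymphatic endothelium and proximal tubule, with 1 point per library and a bar at the group median. The macrophage mean of labelled Per1KO is 3.72 to 4.11 on high salt at 2pm against 3.23 to 3.41 in SS, and proximal tubule means are widest in SS at 2pm on high salt (6.08 to 8.69).

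Ccl6 passed in 3 of the 4 label comparisons. It is a CC ligand of rodents that attracts macrophages, on chromosome 10 from 70797124 to 70802782 in the coordinates of the tables, for which the sources used here name no build. At 2pm on high salt Ccl6 was 12.4, 16.7, 20.3, 16.8 and 19.1 FPKM in the 5 labelled Per1KO libraries, replicates 1 to 5. In SS it was 10.7, 9.18, 8.74, 10.8 and 10.7 FPKM. Every labelled Per1KO library lay above every SS library, the log2 difference was 0.70 ± 0.17 (limma adjusted p = 0.00583), and within the first and later library series it was 0.65 ± 0.28 (adjusted p = 0.0873) and 0.78 ± 0.26 (adjusted p = 0.0673). Such separation upward was seen in 6.64% of all genes.

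At 2am on high salt Ccl6 read 11.05, 24.6, 17.5, 21.6 and 17.9 FPKM in labelled Per1KO and 7.03, 12.4, 9.58, 10.2 and 8.17 FPKM in SS. Only the lowest labelled Per1KO library, replicate 1, fell within the SS range. The difference was 0.87 ± 0.17 (limma adjusted p = 0.00692), and it passed without any single library. At 2am on normal salt the 5 labelled Per1KO libraries held 10.5, 13.1, 11.1, 9.92 and 9.799 FPKM, and the 6 SS libraries lay between 6.24 and 8.64 FPKM (median 7.15). These groups did not overlap, as for 4.86% of all genes, and the difference was 0.51 ± 0.13 (limma adjusted p = 0.0285). That call was lost without SS replicate 1, 3 or 5 or labelled Per1KO replicate 1, 2 or 3, with adjusted p-values of 0.00606 to 0.0981 over the alternatives.

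The macrophage and T cell attractants Ccl3, Ccl4 and Ccl5 passed in no comparison. At 2pm on high salt Ccl5, which draws T cells and monocytes, was 15.3, 2.398, 13.8, 4.14 and 11.1 FPKM in labelled Per1KO and 8.96, 5.18, 7.46, 0.6801 and 2.24 FPKM in SS. The spread within each group was wide, and the difference of 0.83 ± 0.45 did not pass (limma adjusted p = 0.1702). Mean Ccl4 lay between 1.27 and 2.90 FPKM and mean Ccl3 between 0.658 and 1.60 FPKM across the 8 groups. For Ccl4 the nearest value was 0.77 ± 0.23 from 2pm to 2am in SS on high salt (limma adjusted p = 0.0536), and it passed when 0.1 rather than 1 was added before the log.

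**Figure D4:**
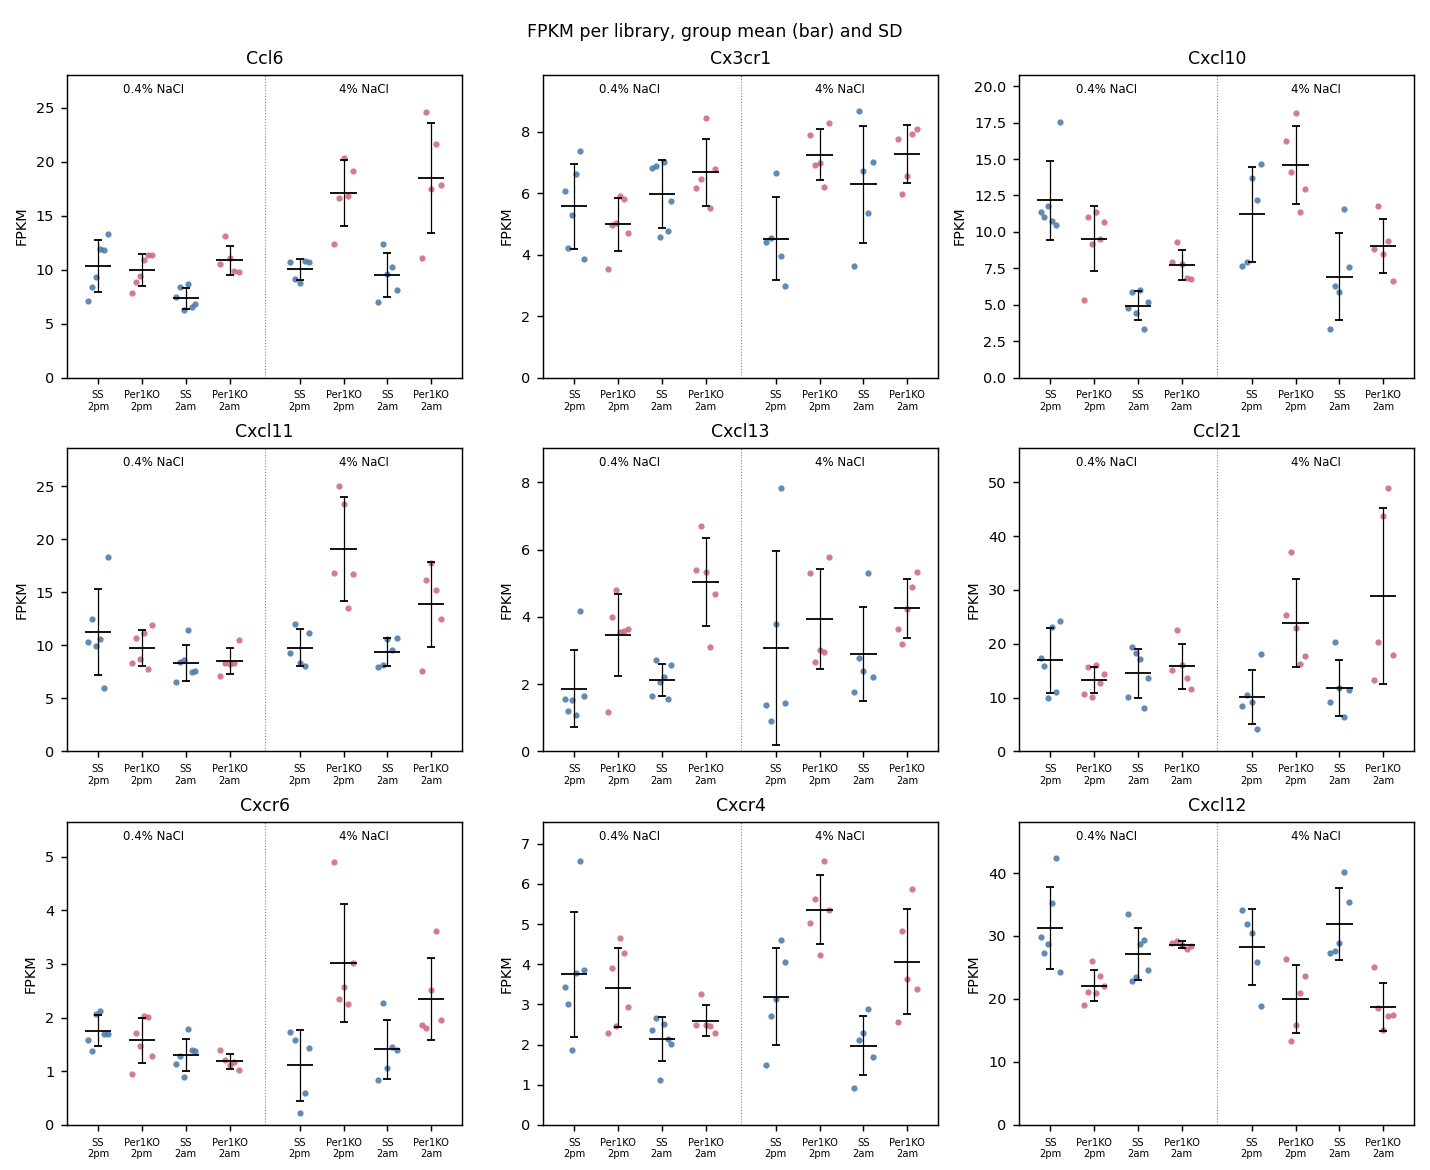
FPKM in each library of the 8 groups for Ccl6, Cx3cr1, Cxcl10, Cxcl11, Cxcl13, Ccl21, Cxcr6, Cxcr4 and Cxcl12, with group means and SD as bars, normal salt left and high salt right of the dotted line. Ccl6 averages 17.1 and 18.5 FPKM in the high salt labelled Per1KO groups against 10.02 and 9.48 in SS, and Cxcl12 averages 18.7 against 31.9 at 2am.

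The Cxcr3 ligands Cxcl9, Cxcl10 and Cxcl11, which attract activated T cells, sit side by side on chromosome 14 of the tables, Cxcl11 from 17195014 to 17198291, Cxcl10 from 17210733 to 17212930 and Cxcl9 from 17228856 to 17234712. Cxcl11 was 16.8, 25.1, 23.3, 13.5 and 16.7 FPKM in labelled Per1KO at 2pm on high salt and 9.29, 11.99, 8.37, 8.06 and 11.2 FPKM in SS. The groups did not overlap, as for 6.64% of all genes, and the log2 difference was 0.88 ± 0.19 (limma adjusted p = 0.00243). It was 0.96 ± 0.27 (adjusted p = 0.0150) in the first library series and 0.67 ± 0.26 (adjusted p = 0.111) in the later. At 2am on high salt Cxcl11 was 7.604, 16.2, 17.8, 15.2 and 12.5 FPKM in labelled Per1KO and 7.95, 8.13, 10.6, 9.602 and 10.7 FPKM in SS, a difference of 0.48 ± 0.19 that did not pass (limma adjusted p = 0.127).

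Cxcl10 had the widest time difference of the members that passed. In SS on normal salt the 6 libraries of 2pm lay between 10.5 and 17.6 FPKM (median 11.2). At 2am the 6 SS libraries lay between 3.32 and 6.05 FPKM (median 4.98). All 2am libraries lay below all 2pm libraries, as for 3.44% of all genes, and the change of -1.14 ± 0.15 (limma adjusted p = 2.18e-05) passed under each alternative run. In labelled Per1KO the same interval gave values between 5.34 and 11.4 FPKM (median 10.1) at 2pm and 7.93, 9.32, 7.77, 6.82 and 6.74 FPKM at 2am, a difference of -0.25 ± 0.16 (limma adjusted p = 0.436).

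The time difference of Cxcl10 itself differed by label on normal salt, by 0.90 ± 0.22 on the log2 scale (limma adjusted p = 0.0331). It was the only member to pass that test, which 2.81% of all genes passed. The call was lost without labelled Per1KO 2pm replicate 3, SS 2am replicate 1, 3 or 5, or labelled Per1KO 2am replicate 1, 2 or 3, and with no filter on low values (adjusted p from 0.0173 to 0.0736). The 2am libraries gave the label difference of 0.56 ± 0.16 (limma adjusted p = 0.045), with no overlap between labels, as for 4.86% of all genes. That call was lost without any library other than SS replicate 2 or 4 and with no filter (adjusted p from 0.0130 to 0.145).

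On high salt Cxcl10 passed neither by label nor by time in limma with the groups of the table pooled. Its label difference was 0.38 ± 0.23 at 2pm (limma adjusted p = 0.232), and there it passed as higher in labelled Per1KO with voom and in the first library series alone. In SS it was 7.64, 7.92, 13.7, 12.2 and 14.6 FPKM at 2pm and 3.35, 6.32, 5.91, 11.6 and 7.57 FPKM at 2am, a difference of -0.66 ± 0.23 (limma adjusted p = 0.0892). In labelled Per1KO it was 16.3, 14.1, 18.2, 11.4 and 12.9 FPKM at 2pm and 8.82, 11.8, 8.46, 9.36 and 6.65 FPKM at 2am, a difference of -0.64 ± 0.23 (limma adjusted p = 0.191). A limma fit limited to these labelled Per1KO groups called Cxcl10 lower at 2am. Label by time was 0.02 ± 0.32 there. Cxcl9 group means stayed between 0.998 and 1.38 FPKM, and those of the receptor Cxcr3 between 1.11 and 2.55 FPKM, with no passing comparison. Cxcr3 had its widest label difference at 2am on high salt, 0.53 ± 0.25 (limma adjusted p = 0.195). With voom it passed as higher by label at 2pm on high salt, and for label by diet at 2pm.

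Genes of the interferon response were read beside these ligands. On normal salt at 2am 9 of 14 tested genes of this axis were higher in labelled Per1KO and 0 lower, where 3.19% of all genes were higher. Isg15, a ubiquitin-like protein induced by interferon, averaged 8.103 ± 1.03 FPKM against 4.603 ± 0.5403, a difference of 0.70 ± 0.12 (limma adjusted p = 0.00271). Irf7, a transcription factor of the type I response, differed by 0.82 ± 0.14 and Mx1, an antiviral GTPase, by 0.69 ± 0.15. From 2pm to 2am in SS on normal salt 11 of 14 fell and 0 rose, where 12% of all genes fell, among them Isg15 by -0.66 ± 0.11 and the guanylate-binding protein Gbp2 by -0.64 ± 0.12. On high salt 6 of 14 were higher in labelled Per1KO at 2pm (14.2% of all genes), with Irf9 at 0.51 ± 0.12, and 5 of 14 at 2am (4.3% of all genes), with Gbp2 at 1.04 ± 0.22. At 2pm on normal salt 0 of 14 passed by label. By time 0 of 14 passed in labelled Per1KO on either diet, and 1, Ifngr1, was lower in SS on high salt.

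Cxcl16 and its receptor Cxcr6, which holds T and NK cells in tissue, both passed by label on high salt at 2pm. Cxcl16, on chromosome 10 from 57060007 to 57064600, was 126, 127, 127, 119 and 120.5 FPKM in labelled Per1KO and 113, 103, 102, 94.3 and 78.2 FPKM in SS. All labelled Per1KO libraries were higher, as for 6.64% of all genes, by 0.35 ± 0.09 on the log2 scale (limma adjusted p = 0.00694). Within the first and later series the difference was 0.23 ± 0.11 (adjusted p = 0.118) and 0.40 ± 0.13 (adjusted p = 0.0582). In the other 3 label comparisons it was between 0.08 and 0.18 and did not pass. With voom Cxcl16 passed as higher on high salt at 2am.

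Cxcr6 was far less abundant. At 2pm on high salt it was 4.91, 2.35, 2.56, 2.24 and 3.03 FPKM in labelled Per1KO and 1.72, 1.58, 0.226, 0.585 and 1.44 FPKM in SS, without overlap, as for 6.64% of all genes. The difference was 0.96 ± 0.23 (limma adjusted p = 0.00465), or 0.64 ± 0.28 (adjusted p = 0.0941) in the first and 1.11 ± 0.30 (adjusted p = 0.0339) in the later series. SS replicates 3 and 4 were the lowest of all 43 libraries, and without SS replicates 4 and 5 the call still passed. Cxcr6 at 2am on high salt averaged 2.35 ± 0.762 FPKM in labelled Per1KO against 1.405 ± 0.548 in SS, a difference of 0.48 ± 0.23 (limma adjusted p = 0.207).

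Cx3cr1, the receptor of resident macrophages and patrolling monocytes, passed as higher by label on high salt at 2pm. Its ligand Cx3cl1 did not pass in the fit to log2(FPKM + 1) but did with voom. There Cx3cr1 was 7.88, 6.93, 7.001, 6.19 and 8.28 FPKM in labelled Per1KO and 4.404, 4.56, 6.67, 3.96 and 2.98 FPKM in SS. SS replicate 3 lay above the lowest labelled Per1KO library, replicate 4. The difference was 0.61 ± 0.17 (limma adjusted p = 0.0129), with 0.59 ± 0.22 (adjusted p = 0.0577) and 0.62 ± 0.29 (adjusted p = 0.172) in the first and later series. Without SS replicates 4 and 5 it was 0.42 and no longer passed (adjusted p = 0.0847).

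Cx3cl1, the membrane-anchored ligand made by endothelium and tubule cells, held a narrow range of 31.1 to 52.7 FPKM over all libraries. In the same libraries it was 51.1, 38.9, 46.4, 47.01 and 48.2 FPKM in labelled Per1KO and 46.4, 38.6, 50.1, 45.97 and 45.2 FPKM in SS. The difference of 0.03 ± 0.09 was within the spread of the libraries (limma adjusted p = 0.823). With voom, which rescales the libraries, Cx3cl1 passed there as higher in labelled Per1KO. At 2am labelled Per1KO held 44.9, 48.6, 49.8, 50.8 and 52.7 FPKM on normal salt and 41.9, 42.2, 39.5, 35.02 and 35.3 FPKM on high salt. Neither label difference at 2am passed, at 0.23 ± 0.09 (limma adjusted p = 0.158) and -0.14 ± 0.09 (adjusted p = 0.372). In a fit limited to the groups compared, Cx3cl1 passed as higher on normal salt.

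Cxcl12 and Cxcr4, the ligand and receptor that retain progenitor and immune cells and guide vessels, differed in opposite directions by label on high salt at 2am. Cxcl12, on chromosome 4 from 149261044 to 149273891, was 25.05, 18.6, 15.1, 17.2 and 17.5 FPKM in labelled Per1KO at 2am and 27.3, 27.6, 28.9, 40.2 and 35.4 FPKM in SS. All labelled Per1KO libraries were lower, as for 5.4% of all genes, by -0.74 ± 0.18 (limma adjusted p = 0.0177). The call was lost without labelled Per1KO replicate 3 or 4 or SS replicate 5 (adjusted p from 0.00697 to 0.0561). At 2pm Cxcl12 was 26.4, 13.4, 15.9, 20.9 and 23.6 FPKM in labelled Per1KO and 34.2, 31.95, 30.4, 25.9 and 18.8 FPKM in SS, a difference of -0.49 ± 0.18 just short of passing (limma adjusted p = 0.0521). It passed as lower when SS replicates 4 and 5 were left out, and in the first library series alone.

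On normal salt Cxcl12 differed by -0.46 ± 0.11 at 2pm (limma adjusted p = 0.0683) and by 0.09 ± 0.11 at 2am (adjusted p = 0.717). In labelled Per1KO the 2am values, 28.9, 29.3, 28.6, 27.9 and 28.4 FPKM, all lay above those of 2pm, which were between 18.97 and 26.1 FPKM (median 21.6). That separation, seen in 3.34% of all genes, did not pass as a time difference at 0.36 ± 0.11 (limma adjusted p = 0.0863). In a fit limited to these groups Cxcl12 passed as higher at 2am.

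Cxcr4 was higher in labelled Per1KO at both times on high salt. At 2pm it was 5.02, 5.63, 4.23, 6.58 and 5.34 FPKM in labelled Per1KO and 1.48, 2.7, 3.14, 4.59 and 4.04 FPKM in SS. The ranges overlapped in SS replicate 4, and the difference was 0.65 ± 0.22 (limma adjusted p = 0.0323), or 0.97 ± 0.29 (adjusted p = 0.0223) in the first and 0.50 ± 0.29 (adjusted p = 0.261) in the later series. It was lost without labelled Per1KO replicate 2, 4 or 5 or SS replicate 1 or 2, with no filter on low values and in a fit limited to the groups compared (adjusted p up to 0.0859).

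At 2am Cxcr4 was 2.56, 4.84, 3.62, 5.88 and 3.38 FPKM in labelled Per1KO and 0.911, 2.104, 2.28, 2.88 and 1.69 FPKM in SS, with labelled Per1KO replicate 1 inside the SS range. The difference was 0.77 ± 0.22 (limma adjusted p = 0.035). This call was lost without labelled Per1KO replicate 2, 3, 4 or 5, without SS replicate 1 or 5, and with no filter on low values (adjusted p up to 0.118).

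Ccl21 and Ccl19, ligands of Ccr7 that guide T cells and dendritic cells into lymph vessels and lymphoid tissue, are neighbours on chromosome 5. On high salt at 2pm Ccl21 was 25.3, 37.05, 22.9, 16.3 and 17.7 FPKM in labelled Per1KO and 8.47, 10.4, 9.15, 4.21 and 18.03 FPKM in SS. SS replicate 5 alone reached the labelled Per1KO range. The difference was 1.23 ± 0.37 (limma adjusted p = 0.0177), with 1.47 ± 0.49 (adjusted p = 0.0346) in the first and 0.84 ± 0.58 (adjusted p = 0.354) in the later series.

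At 2am on high salt Ccl21 was 13.2, 20.2, 43.8, 49.02 and 17.9 FPKM in labelled Per1KO and 9.19, 20.3, 11.7, 6.47 and 11.5 FPKM in SS. Replicates 3 and 4 of labelled Per1KO were far above the rest, and the difference of 1.13 ± 0.37 did not pass (limma adjusted p = 0.0611). With voom Ccl21 passed there as higher. Of 5 lymphatic endothelium markers 4 were tested, and Flt4 and Mmrn1 were higher in labelled Per1KO at 2pm (14.2% of all genes) and Mmrn1 at 2am (4.3%). The part of lymphatic vessel content in the Ccl21 values was not tested.

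Ccl19 fell from 2pm to 2am in SS on normal salt. At 2pm the 6 libraries lay between 7.78 and 17.7 FPKM (median 12.7) and at 2am between 4.07 and 9.12 FPKM (median 6.83), overlapping only through the lowest 2pm library, replicate 3. The change was -0.83 ± 0.19 (limma adjusted p = 0.00354) and passed under each alternative run. In labelled Per1KO the time difference was 0.09 ± 0.20 (limma adjusted p = 0.859), and label by time gave 0.92 ± 0.27 (adjusted p = 0.0632). The latter passed with voom. The receptor Ccr7 had group means of 0.300 to 1.08 FPKM and was below the filter in either table alone. With no filter on low values it passed as higher in labelled Per1KO on normal salt at 2am, by 0.42 ± 0.10 (limma adjusted p = 0.0405), and as lower from 2pm to 2am in SS on normal salt, by -0.39 ± 0.10 (adjusted p = 0.0119).

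Cxcl13, the B cell attractant that acts on Cxcr5, was higher in labelled Per1KO at 2am on normal salt. The 5 libraries held 5.397, 6.69, 5.34, 3.09 and 4.68 FPKM, and the 6 SS libraries lay between 1.57 and 2.72 FPKM (median 2.14). No library overlapped, as for 4.86% of all genes, and the difference was 0.93 ± 0.23 (limma adjusted p = 0.02504). It was lost without SS replicate 1, 3 or 5 or labelled Per1KO replicate 1, 2 or 3 (adjusted p from 0.00453 to 0.0883). At 2pm on normal salt labelled Per1KO lay between 1.16 and 4.78 FPKM (median 3.602) and SS between 1.08 and 4.16 FPKM (median 1.53), a difference of 0.65 ± 0.22 that did not pass (limma adjusted p = 0.217). There SS replicate 5 was the highest of its group and labelled Per1KO replicate 1 the lowest of its own. Without these 2 libraries, a choice made after seeing the data, Cxcl13 was the 1 member that passed at 2pm. Cxcr5 had means of 0.666 to 1.02 FPKM, and all 7 B cell markers in the tables were below 1 FPKM in every group.

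Ccr10, a receptor for Ccl27 and Ccl28 known from skin and mucosal lymphocytes, was the most abundant receptor and passed by time in SS on high salt. In SS it was 15.4, 11.8, 8.82, 3.33 and 5.15 FPKM at 2pm and 22.8, 15.1, 15.6, 13.4 and 15 FPKM at 2am. SS 2pm replicates 4 and 5 were the low end and 2am replicate 1 the high end. The rise of 0.95 ± 0.27 (limma adjusted p = 0.0456) was the only member call of that comparison, where 5.44% of all genes passed. Without 2pm replicates 4 and 5, which were low in proximal tubule markers, it was 0.43 ± 0.20 and did not pass (adjusted p = 0.335). It was also lost without 2pm replicate 3, 4 or 5, or 2am replicate 1, 2, 3 or 5, taken singly, with 0.1 added before the log, with no filter and in a fit limited to these groups.

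In labelled Per1KO, Ccr10 was 5.63, 4.15, 7.49, 5.91 and 7.93 FPKM at 2pm and 12.1, 8.11, 10.9, 8.55 and 9.34 FPKM at 2am. The 2am libraries all lay above, as for 4.75% of all genes, yet the difference of 0.59 ± 0.27 did not pass (limma adjusted p = 0.2896). In that comparison 0 of 29 members passed in limma and 0 in voom, where 0.262% of all genes passed, and 4 had an unadjusted p below 0.05. A limma fit limited to these groups called Cxcl10 lower at 2am, where 648 of 14899 genes passed. By label at 2am Ccr10 was lower in all labelled Per1KO libraries, as for 5.4% of all genes, by -0.68 ± 0.27, which did not pass (limma adjusted p = 0.124). It passed as lower by label in a fit limited to the 2am groups. Ccl27 and Ccl28 had group means of 1.84 to 2.93 and 1.57 to 2.94 FPKM and no passing comparison. Ccl27 did pass as lower in labelled Per1KO on normal salt at 2am in a fit limited to the groups compared.

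Among the monocyte ligands, Ccl2, which recruits monocytes through Ccr2, passed only by time in SS on normal salt. Its 6 libraries lay between 5.36 and 9.32 FPKM (median 7.93) at 2pm and between 3.07 and 7.18 FPKM (median 4.52) at 2am, with overlap. The change was -0.54 ± 0.17 (limma adjusted p = 0.0242) and was lost without 2am replicate 3 or 5 or 2pm replicate 2, and in a fit limited to these groups (adjusted p up to 0.0610). For SS on high salt at 2pm Ccl2 was 2.52, 2.69, 17.1, 11.4 and 7.92 FPKM. The libraries of the first series, replicates 1 and 2, held the lowest values of all 43, and the label difference of 0.55 ± 0.39 did not pass (limma adjusted p = 0.315). In the first series alone Ccl2 passed as higher in labelled Per1KO. Ccl7, a related ligand, had means of 0.787 to 1.92 FPKM, and Ccr2 had means of 0.280 to 1.18 FPKM.

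From 2pm to 2am in SS on normal salt 6 of 27 members fell and 0 rose, where 26.3% of all genes passed (12% lower). Beside Cxcl10, Ccl19 and Ccl2 these were Ccl6, Cxcl14 and Cxcr4, and the median over the 27 was -0.17 against 0.00 over all genes. Ccl6 went from values between 7.08 and 13.3 FPKM (median 10.6) to values between 6.24 and 8.64 FPKM (median 7.15), a change of -0.42 ± 0.12 (limma adjusted p = 0.01702). Cxcl14, a ligand made by epithelia that attracts monocytes, lay between 3.52 and 6.95 FPKM (median 5.202) at 2pm and between 2.76 and 4.65 FPKM (median 3.71) at 2am. Both genes overlapped between times. The change in Cxcl14 was -0.46 ± 0.11 (limma adjusted p = 0.00551) and passed under each alternative run, while that in Ccl6 was lost in a fit limited to these groups.

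Cxcr4 in SS on normal salt lay between 1.86 and 6.56 FPKM (median 3.602) at 2pm and between 1.12 and 2.67 FPKM (median 2.24) at 2am, with overlap. Its change of -0.56 ± 0.18 (limma adjusted p = 0.0274) was lost without 2am replicate 3 or 2pm replicate 5, with no filter on low values and in a fit limited to these groups (adjusted p up to 0.0797). Macrophage markers moved the same way, 7 of 10 passing as lower and 0 higher, and so did 4 of 9 tested T and NK cell markers and 4 of 7 markers of injured tubules. Of all genes 12% were lower. The part of these markers in these changes was not tested. In labelled Per1KO on normal salt 0 of 27 members passed by time in limma and 0 in voom, where 3.11% of all genes passed, and 4 members had an unadjusted p below 0.05. There 0 macrophage markers passed as well. A limma fit limited to these labelled Per1KO groups called Cxcl12 higher at 2am.

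**Figure D5:**
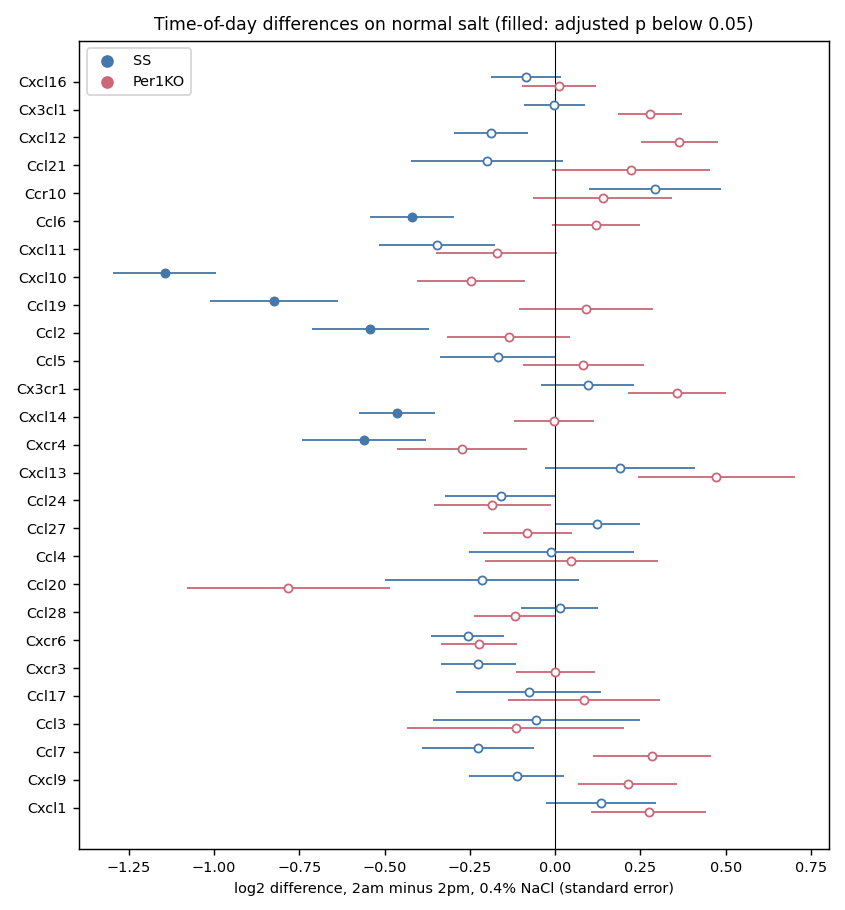
Difference in log2(FPKM + 1), 2am minus 2pm on normal salt, with its standard error, for each described member that was tested, blue for SS and red for labelled Per1KO. Filled points have an adjusted p below 0.05, 6 in SS and 0 in labelled Per1KO, and Cxcl10 lies at -1.14 in SS and at -0.25 in labelled Per1KO.

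Ccl24, an eosinophil attractant that acts on Ccr3, was the only member called lower at 2pm on high salt. It was 1.35, 2.66, 1.28, 1.41 and 2.06 FPKM in labelled Per1KO and 1.86, 1.97, 4.67, 3.21 and 3.32 FPKM in SS, with overlap. The difference was -0.52 ± 0.19 (limma adjusted p = 0.0424), but only -0.11 ± 0.23 (adjusted p = 0.753) in the first series against -0.79 ± 0.21 (adjusted p = 0.0347) in the later. It was lost without labelled Per1KO replicate 1, 3 or 4 or SS replicate 3, 4 or 5, and in 5 of 7 other settings (adjusted p up to 0.173).

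Within single library series at 2pm on high salt, the 8 members named there kept their direction in each series. In the first series Ccl21, Cxcl11 and Cxcr4 passed, and in the later series Cxcr6 and Ccl24. Of all genes 4581 of 14422 passed in the first series and 1499 of 14480 in the later. The later series includes SS replicates 4 and 5, so its values rest partly on them. With the series as a covariate, Ccl24 did not pass and the other 7 did. Without SS replicates 4 and 5, which stood apart in kidney markers, Cx3cr1 and Ccl24 did not pass, while Ccl17, Ccl19 and Ccl7 passed as higher and Cxcl12 and Ccr10 as lower.

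The label difference at 2pm differed between diets for 6 members, all more positive on high salt, where 22% of all genes passed that test (11% higher). This test uses both tables, and an offset between tables shared by both labels cancels. An offset of the SS normal salt 2pm group alone, whose library names start with OK, would not cancel. The interaction was 1.51 ± 0.43 for Ccl21 (limma adjusted p = 0.0117), 1.14 ± 0.33 for Ccl19 (adjusted p = 0.01298) and 1.07 ± 0.24 for Cxcr6 (adjusted p = 0.00235). It was 1.02 ± 0.26 for Cxcl11 (adjusted p = 0.00573), 0.73 ± 0.22 for Cx3cr1 (adjusted p = 0.0176) and 0.73 ± 0.21 for Ccl6 (adjusted p = 0.0138). None of these 6 calls was lost when any single library was left out. Without SS high salt replicates 4 and 5 Cx3cr1 no longer passed. For Ccl19 the label difference was -0.51 ± 0.19 on normal salt and 0.63 ± 0.27 on high salt, and neither passed by itself. With voom the high salt difference passed as higher.

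At 2am 0 of 31 members passed this interaction with diet in limma, nor did any gene (0% of all), and 5 members had an unadjusted p below 0.05. Label by time on high salt gave 0 of 29 members (0.101% of all genes), with 0 at an unadjusted p below 0.05.

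Levels on the 2 diets come from separate tables, so diet and table cannot be told apart and no test was made. In labelled Per1KO at 2pm, 5 members had all high salt libraries above all normal salt libraries (11.1% of all genes did) and 1, Ccr10, had them below (11.2%). Ccl21 lay between 16.3 and 37.1 FPKM on high salt and 10.2 and 15.97 on normal salt. Ccr10 lay between 4.15 and 7.93 FPKM and 10.9 and 17.01. Cxcl11, Ccl6, Cx3cr1 and Cxcr6 were the others above. At 2am Cxcr6 lay above (10.6% of all genes) and Cx3cl1 and Cxcl12 below (9.62%). In SS, 0 members were separated by diet in either direction, where 3.81% and 2.6% of all genes lay above and below at 2pm, and 3.39% and 2.5% at 2am.

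Genes around chemokine action were read from lists of their known roles. Of 28 to 29 tested genes of chemokine receptor signalling, 0 passed by label on normal salt at 2pm, and 5 of 28 were higher and 0 lower at 2am (3.19% of all genes were higher). On high salt 14 of 29 were higher and 1, Gnai3, lower at 2pm (14.2% of all genes higher and 15.7% lower), and 3 of 29 were higher and 0 lower at 2am (4.3% higher). Gnai2, the inhibitory G protein subunit that couples to chemokine receptors, passed in all 3, by 0.25 ± 0.06, 0.43 ± 0.08 and 0.32 ± 0.08. Arrb2, an arrestin that ends receptor signalling, averaged 9.29 ± 1.44 FPKM in labelled Per1KO against 5.16 ± 0.906 in SS at 2pm on high salt, a difference of 0.74 ± 0.12 (limma adjusted p = 0.000245), and the receptor kinase Grk5 differed by 0.46 ± 0.08. At 2am on normal salt Gng2 differed by 0.36 ± 0.09 and Vav1 by 0.47 ± 0.13. The list held 6 lower and 1 higher (Grk5) of 28 by time in SS on normal salt, where 26.3% of all genes passed.

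Of 14 tested genes of NF-kB and inflammatory cytokines, 10 were higher and 1, Il33, lower by label on high salt at 2pm (14.2% and 15.7% of all genes), 3 were higher at 2am (4.3%), and on normal salt 2 were higher at 2am (3.19%) and 0 passed at 2pm. By time in SS on normal salt 4 of 14 were lower, against 12% of all genes. Icam1, an adhesion molecule for white cells, averaged 24.95 ± 3.89 FPKM in labelled Per1KO against 14.3 ± 2.196 in SS, a difference of 0.76 ± 0.12 (limma adjusted p = 0.000283). It was 0.38 ± 0.10 at 2am on normal salt and 0.50 ± 0.12 at 2am on high salt. Tnfaip3, an inhibitor of NF-kB, differed by 0.72 ± 0.17 and 0.70 ± 0.17 at the 2 times on high salt. Of 11 to 12 tested adhesion genes 6 were higher at 2pm and 4 at 2am on high salt, and 3 at 2am and 0 at 2pm on normal salt, with 4 of 11 lower by time in SS, to be read against those same shares. Itgb2, the shared chain of white cell integrins, differed by 0.67 ± 0.16 at 2am on high salt.

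Among 9 tested other chemokines and modulators, Cmklr1, the chemerin receptor of macrophages, was higher in labelled Per1KO by 0.50 ± 0.12 on normal salt at 2am and by 0.67 ± 0.13 on high salt at 2pm. Pf4, a platelet chemokine, was higher by 1.07 ± 0.31 on high salt at 2am. Dpp4, a brush border peptidase that trims chemokines such as Cxcl10 and Cxcl12, averaged 155 ± 34.04 FPKM in labelled Per1KO and 285 ± 61.9 in SS at 2pm on high salt, a difference of -0.86 ± 0.15 (limma adjusted p = 0.000432). Proximal tubule markers, of the cells that carry Dpp4, had means of 7.02 to 7.76 in labelled Per1KO and 6.08 to 8.69 in SS there. Their part in it was not tested.

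Of the 31 described members, 15 passed in at least 1 of the 12 comparisons. The other 16 passed in none, among them Cx3cl1, Cxcr3, Ccl5, Ccl20, Ccl17 and Cxcl1. Some of these passed under alternatives. By label on high salt at 2pm, Cx3cl1 and Cxcr3 passed as higher with voom, and Cxcl1 in the first library series alone. Ccl20, which acts on Ccr6, ranged from 0.279 to 10.1 FPKM with its highest value in SS high salt 2pm replicate 5, and Ccl17, a ligand of Ccr4, ranged from 0.170 to 3.97 FPKM. The neutrophil attractant Cxcl1 had group means of 0.790 to 1.43 FPKM. Its relatives Cxcl2, Cxcl3 and Cxcl6 and the receptors Cxcr1 and Cxcr2 were below 1 FPKM in every group. Also below were Ccr1, Ccr3, Ccr4, Ccr6, Ccr8, Ccr9, Ccr1l1, Ccl1, Ccl11, Ccl12, Ccl22, Ccl25, Ccl26 and Cxcl17, and no member was at 0 in all libraries.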

How the data were processed

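Poly(A)-selected mRNA of rat kidney cortex, extracted with Trizol, was measured in 43 libraries of 8 groups. The authors deposited FPKM per gene in 1 table per diet, and the submitters' processing notes name featureCounts 1.5.0-p3, StringTie 1.3.3b, HISAT2 2.0.5 and fastp. The protocol in the labels covers directional and non-directional libraries, so strand is not known here, nor is the genome build. No value column lacked a sample (0). FPKM times gene length gave whole fragments for 100% of values within 0.01, from which depth was taken. Of the 51 genes that the naming rule takes, 1 is not reported here. Members, lists and tests were chosen with earlier results of these data known.

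Values were log2(FPKM + 1), which understates changes of low genes. Genes that reached 1 FPKM in 5 or more libraries were fitted with limma 3.58.1 (R 4.3.3, empirical Bayes with trend, groups of a table pooled): 13436 on normal salt, 14899 on high salt and 14102 in the joint fit for label by diet. There were 12 comparisons, two-sided, with Benjamini-Hochberg adjustment over all genes of each. SS and labelled Per1KO are compared as labelled Per1KO minus SS, times as 2am minus 2pm. Values over the libraries of a group are given for members passing in any comparison and the 4 most abundant. Ccl5, given in the same way, is outside this rule. Other described members are given by group means, ranges or differences. From other lists, up to 3 genes of smallest p per label comparison are named, not all printed. Each series at high salt 2pm, and leaving out libraries that stood apart, were alternatives chosen after seeing the data. No pair of libraries within a group was a copy (95 pairs compared). The scripts were tested on simulated data.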

Additional observations from a re-analysis of the deposited data

Results flagged for a closer look

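A library stood far from the rest of its group (a gap by Dixon's ratio) in 19 of 248 sets of member and group, or 7.66%, and chance gives about 1 in 20. Single high values were Ccr10 in SS high salt 2am replicate 1 (22.8 FPKM), Cxcl10 in SS normal salt 2pm replicate 6 (17.6 FPKM), Cxcr4 in labelled Per1KO normal salt 2am replicate 2 (3.26 FPKM) and Ccl20 in SS high salt 2pm replicate 5 (10.1 FPKM). Cxcl13 was high in SS normal salt 2pm replicate 5 (4.16 FPKM) and SS high salt 2am replicate 4 (5.30 FPKM) and low in labelled Per1KO normal salt 2pm replicate 1 (1.16 FPKM), where Cxcl10 was low as well (5.35 FPKM). Ccl4 was high in SS normal salt 2am replicate 2 (4.603 FPKM) and SS high salt 2pm replicate 3 (2.37 FPKM). Ccl17 was high in labelled Per1KO normal salt 2am replicate 2 (2.10 FPKM), and Cxcl9 in SS normal salt 2am replicate 3 (1.77 FPKM).

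Ccl3 had 5 such libraries. It was high in SS normal salt 2pm replicate 4 (2.09 FPKM), labelled Per1KO normal salt 2pm replicate 5 (4.66 FPKM), SS normal salt 2am replicate 2 (3.26 FPKM) and labelled Per1KO normal salt 2am replicate 2 (2.07 FPKM), and listed at 0 in SS high salt 2pm replicate 4. Ccr7 was high in labelled Per1KO normal salt 2pm replicate 4 (0.811 FPKM) and labelled Per1KO high salt 2pm replicate 5 (1.82 FPKM). Calls that Cxcl10, Ccr10, Cxcr4 and Cxcl13 lose without single libraries stand beside their values in the report.

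Label differences differed between times or diets, by the interaction test in limma, for 7 results. Cxcl10 differed by 0.90 on the log2 scale between 2am and 2pm on normal salt. Between high and normal salt at 2pm the label difference differed by 1.51 for Ccl21, 1.14 for Ccl19, 1.07 for Cxcr6, 1.02 for Cxcl11, 0.73 for Cx3cr1 and 0.73 for Ccl6.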

How the results depend on the processing

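No member that passed changed direction under any alternative run. The number of members passing with each library left out in turn was 0 to 1 by label on normal salt at 2pm, 0 to 3 at 2am, 6 to 9 on high salt at 2pm and 1 to 5 at 2am. By time it was 4 to 7 in SS on normal salt, 0 in labelled Per1KO on normal salt, 0 to 4 in SS on high salt and 0 in labelled Per1KO on high salt. It was 0 to 3 for label by time on normal salt, 0 on high salt, 6 to 8 for label by diet at 2pm and 0 at 2am. With no filter on low values 0 members passed by time in SS on high salt and for label by time on normal salt. In fits limited to the groups compared, 5 passed by label on normal salt at 2am, 3 by time in SS on normal salt, 1 in labelled Per1KO on normal salt, 0 in SS on high salt and 1 in labelled Per1KO on high salt. With voom on recovered fragments 5 passed by label on high salt at 2am, 3 for label by time on normal salt and 10 for label by diet at 2pm. The cause of these moves was not tested.

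Of alternatives chosen after seeing the data, leaving out SS replicate 5 and labelled Per1KO replicate 1 gave 1 member by label on normal salt at 2pm, and on high salt at 2pm, where 8 passed, the later series alone gave 2, the first series alone 10 (8 higher and 2 lower) and leaving out SS replicates 4 and 5 gave 11. Of all genes, 1499 of 14480, 4581 of 14422 and 4963 of 14714 passed in these high salt alternatives, in the same order. Without SS high salt replicates 4 and 5, time in SS on high salt gave 0, and label by diet at 2pm gave 10, also 10 with the 4 libraries that stood apart all left out. Levels by diet, without the lowest and highest library of each group, separated 6 and 4 members in SS and 13 and 14 in labelled Per1KO at 2pm and 2am.

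The deviations of libraries that share a replicate number correlated by 0.0188 on average for normal salt and by 0.0318 for high salt. Single pairs ran from -0.526 to 0.612 on normal salt, with 14 of 33 above 0.1. On high salt they ran from -0.23 to 0.421, with 6 of 30 above 0.1. An average over so wide a range cannot tell whether replicate numbers pair the libraries. The main fits held no block for replicate number. With the replicate block 0 members passed by time in labelled Per1KO on normal salt, and all genes passing there went from 418 to 272, by time in labelled Per1KO on high salt from 39 to 5, and for label by time from 378 to 657 on normal salt and 15 to 8 on high salt.

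Counts over all genes moved as well. In fits limited to the groups compared they went from 50 to 3, 561 to 2357, 4445 to 2592 and 1333 to 2333 in the 4 label comparisons, from 3534 to 1778, 418 to 798, 811 to 45 and 39 to 648 by time, and from 3102 to 1431 for label by diet at 2pm. With voom they were 1467 and 2062 by label at 2am on normal and high salt, 115 by time in labelled Per1KO on high salt and 805 for label by time on normal salt. The voom splits were 1248 higher and 2276 lower by time in SS on normal salt, 383 and 141 in labelled Per1KO, 709 and 189 in SS on high salt, 693 and 112 for label by time on normal salt and 3458 and 487 for label by diet at 2pm, where the median of all genes moved by 0.125 and 0.24 in the last pair. With no filter they were 14 by time in labelled Per1KO on high salt, and 181 and 8 for label by time on normal and high salt. On high salt at 2pm the series as a covariate gave 2143 and the later series alone 1499, and time in SS without replicates 4 and 5 gave 170. Leaving out single libraries gave 91 to 888 by label on normal salt at 2am and 492 to 1854 on high salt at 2am, where 492 was without SS replicate 1. Ccr2 and Ccl17 had a median of 3 and 11 fragments per library, which limits the precision of their values.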
